A study of Mus musculus with 66 samples.

Results

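The 9 genes described here belong to the early response to neuronal activity: Fos, Fosb, Fosl1, Fosl2, Egr1, Atf3, Nr4a3, Per1 and Dusp5. They were chosen by name with earlier results of these data known, so that each has a region is not a result. Their regions are all those that the authors assigned to them in any of 7 lists of regions called as different between 2 groups. The 9 genes had 10 such regions, of 57678 regions that named 9811 genes. Dusp5 had 2 regions and the other genes 1 each.

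The samples were from C57bl/6 mice. Primary cortical neurons taken at E16.5 and kept 8 days in vitro received isotonic KCl, which depolarises the membrane, or no stimulation. H3.3 chromatin was recovered with an antibody at 3 KCl exposures (30 min, 2 hr, 5 hr), each with its own unstimulated group. H3.1/2 was immunoprecipitated after 5 hr. CATCH-IT, a streptavidin capture of newly made and metabolically tagged histones, was also run after 5 hr. For the housing comparison, nuclei were sorted from the hippocampus of mice about 7 weeks old, after 4 weeks of environmental enrichment or after normal housing. NeuN+ nuclei are neuronal, and NeuN- nuclei are a mixture of the other cells. The lists gave 3 values per group, except 2 per group for NeuN+.

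Immediate-early genes are switched on within minutes of depolarisation, from factors that are already in the cell and without new protein. Calcium entry leads to phosphorylation of CREB and to activity of SRF, which bind CRE and CArG elements near these genes. Fos family proteins pair with Jun proteins to form AP-1, Egr1 and Nr4a3 are DNA-binding factors of their own families, Atf3 is a stress-induced bZIP factor, Per1 is a clock gene with a CRE-driven response, and Dusp5 removes phosphate from ERK and so closes the loop. H3.3 is the histone H3 variant that is put into chromatin outside replication, which is how neurons that no longer divide replace nucleosomes, whereas the replication-coupled forms H3.1 and H3.2 were recovered together as H3.1/2.

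Each list began at about a 3-fold difference between group means, so a gene without a region was not shown to be unchanged. A region is here said to have risen or fallen where the authors' adjusted p was 0.05 or less. No further test of single regions was made, because each had been listed on the same libraries. The labels describe the culture experiments as biological triplicates and do not say whether these were separate cultures. For H3.3 at 30 min and 2 hr, for CATCH-IT and for NeuN- nuclei, each group had 1 lane number of its own. Lane and treatment thus cannot be told apart there. The H3.1/2 groups and the NeuN+ groups used several lanes each and shared none between groups, so the same holds for them. At 5 hr, by contrast, the KCl and control H3.3 libraries carried the same 3 lane numbers, with 1 library of each group per number. The sample labels used here give no sequencing run, so an equal number does not show that a lane was shared. The value of 1 read was 0.758 to 1.36 normalised counts over the 18 H3.3 culture libraries and 0.315 to 2.72 over the 6 CATCH-IT libraries. The labelled cell types could not be checked, since the lists hold no level for a gene that was not listed. Regions of some list were assigned to 2 of 6 neuron markers, 4 of 6 astrocyte, 4 of 6 oligodendrocyte, 2 of 5 microglia and 4 of 5 endothelial markers. In the H3.3 lists at 2 hr and 5 hr, which hold the H3.3 regions of the 9 genes, the number of these markers with a region was 0.

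H3.3 rose at Fosb and Egr1 after 5 hr of KCl and fell at Per1 after 2 hr. A region at Fos was listed as gained at 5 hr and did not pass the authors' adjusted p. No region of the 9 genes was listed for H3.3 at 30 min. Each of the 4 genes with an H3.3 region appeared at a single time, and none of them had a CATCH-IT region of its own. Whether the times differed from each other could not be tested, since a gene below the listing threshold has no value.

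Fosb encodes an AP-1 subunit whose truncated form builds up with repeated activity. Its H3.3 region, chr7:19890721-19891100 in mm9, had normalised counts of 24.59, 25.46 and 29.76 in the KCl libraries and 9.44, 8.2 and 8.73 in the control libraries. These values come from 25, 29 and 30 reads and from 8, 8 and 9 reads. Every KCl library lay above every control library, and the gap between the groups, 15.15 normalised counts, exceeded the SD of either group. The means were 26.6 ± 2.77 and 8.79 ± 0.622 (SD, n = 3 each), a 3.03-fold difference that stands at the edge of listing. In the authors' deposited table the log2 fold change was 1.60 with an adjusted p of 0.0347. The region had the smallest p of the 295 gained regions of that list and the highest KCl level among them. Levels were not scaled by length, and the region spans 380 bp, against a median of 200 bp in the list. The authors' ratio to input was 2.02 in KCl and 0.62 in control, a 3.26-fold difference, so that the input level behind the region was nearly equal, 13.2 against 14.2 normalised counts. As in any tissue or culture sample, a change in the make-up of the cells and a change of H3.3 within cells cannot be told apart.

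Egr1 encodes a zinc-finger activator of later genes. Its region on chromosome 18, from 35025421 to 35025680, had 18.69, 15.8 and 21.83 normalised counts in KCl (19, 18 and 22 reads) and 4.72, 4.1 and 5.82 in control (4, 4 and 6 reads). The lowest KCl library stood 9.98 normalised counts above the highest control library. The means were 18.77 ± 3.02 and 4.88 ± 0.871 (SD, n = 3 each), or 3.85-fold. The authors' deposited table gave a log2 fold change of 1.94, an adjusted p of 0.0399 and ratios to input of 1.79 and 0.54, a 3.31-fold difference. By p it was number 5 of the 295 gained regions.

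Fos, the prototype of these genes and the partner of Jun in AP-1, had the highest p of the 3 gains. Its region, chr12:86819001-86819200, had 16.72, 11.41 and 15.87 normalised counts in KCl (17, 13 and 16 reads) and 3.54, 6.15 and 3.88 in control (3, 6 and 4 reads). The groups did not overlap, and the second KCl value and the second control value lay nearest to each other, 5.26 apart. The means were 14.67 ± 2.85 and 4.52 ± 1.42 (SD, n = 3 each), 3.24-fold. The log2 fold change in the authors' deposited table was 1.70 with an adjusted p of 0.108, above the threshold, and its p ranked 203 of 295. The authors' ratios to input were 2.55 and 0.71, a 3.59-fold difference. Relative to input, then, the Fos difference was wider than in the counts.

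Per1, a repressor of the circadian clock, was listed 3 hr earlier than these and in the other direction. The region chr11:68911541-68911740 had 3.68, 4.55 and 4.09 normalised counts after 2 hr of KCl (4, 6 and 3 reads) and 14.26, 13.33 and 13.5 in control (14, 16 and 11 reads). Values within each group were close, but the KCl values rest on 6 reads or fewer each, so their closeness does not show precision. The lowest control library stood 8.78 above the highest KCl library. The means were 4.11 ± 0.435 and 13.7 ± 0.495 (SD, n = 3 each), 3.34-fold lower in KCl. The authors' deposited table gave a log2 fold change of -1.74 and an adjusted p of 0.021. The authors' ratio to input was 0.67 in KCl and 1.35 in control, only a 2.01-fold difference, because the input level was itself 1.65 times lower in KCl (6.12 against 10.1 normalised counts). Input was 1 library per group, and the part of input in the Per1 value was not tested. By p, Per1 was number 361 of the 590 regions lost at 2 hr.

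**Figure D1:**
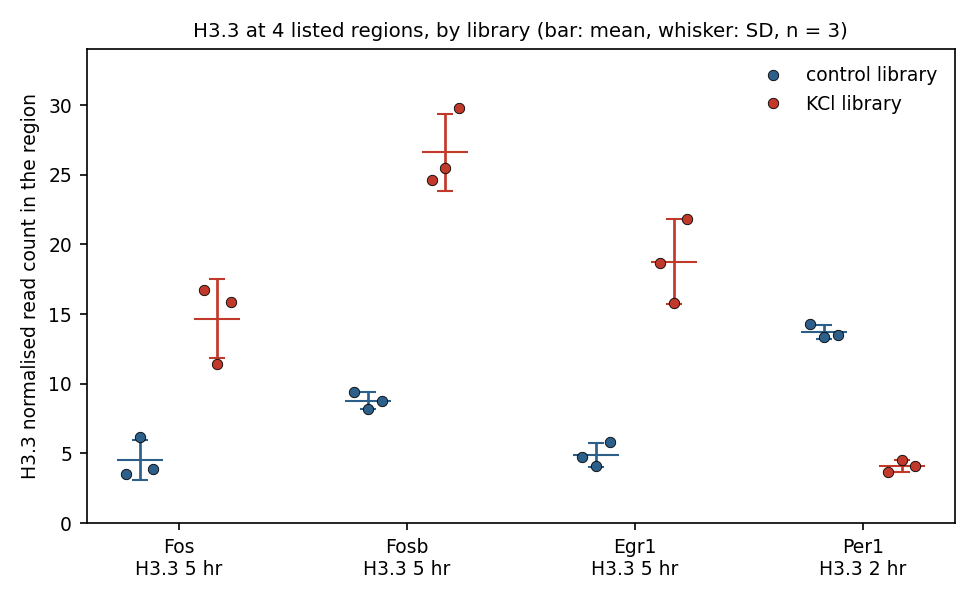
H3.3 normalised read count (vertical axis) in the 4 listed regions, with 1 point per library, a bar at the mean and whiskers of 1 SD (n = 3 per group). KCl libraries lie above all control libraries at Fos, Fosb and Egr1 and below them at Per1; the Per1 values come from another list, normalised on its own, and are not on a common scale with the 5 hr values.

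Absence of overlap between groups was not particular to these genes, since 100% of the regions of each H3.3 culture list had groups that did not overlap. At 5 hr, 2 of the 3 gained regions of the 9 genes passed the adjusted p, as did 11 of all 295 gained regions. Over the 667 listed regions, gained and lost together, 1.65% were called as gained and 1.35% as lost. Fosb and Egr1 were thus 2 of 11 gained regions called. At 2 hr the background was quite different: 85.3% of the 689 listed regions were called as lost and 14.2% as gained, so the Per1 call is what most regions of that list gave. At 30 min, with no region of the 9 genes, 78.6% of 457 regions were called as lost and 19.9% as gained. H3.1/2 had no region at any of the 9 genes in a list of 7 regions, of which 42.9% were called as gained and 14.3% as lost.

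The gained H3.3 regions lay at nearly the same distance from the gene starts. By the transcripts of the authors' table, the region centres were 4.25 kb past the start for Fos, 4.48 kb for Fosb and 4.69 kb for Egr1. Fos and Egr1 are short genes, and their regions lay 0.882 and 0.942 kb past the gene end, in sequence downstream of the annotated gene. The authors nonetheless classed both regions as gene body. Fosb is longer, and its region was intronic, 2.87 kb before the end. None of the 3 regions was at a promoter. Of the 207 gained regions with a named gene at 5 hr, 13 (6.28%) lay 4 to 5 kb past a start and 6 (2.90%) within 1 kb past an end. The first count includes the 3 genes and the second includes Fos and Egr1. Both windows were drawn around the positions of these genes, so the shares place the genes in the list and are no comparison. Per1 differed by annotation. The authors placed the region 0.795 kb upstream of the start of a shorter transcript, as a promoter region, whereas by the GENCODE gene it was intronic and 2.92 kb past the start.

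**Figure D2:**
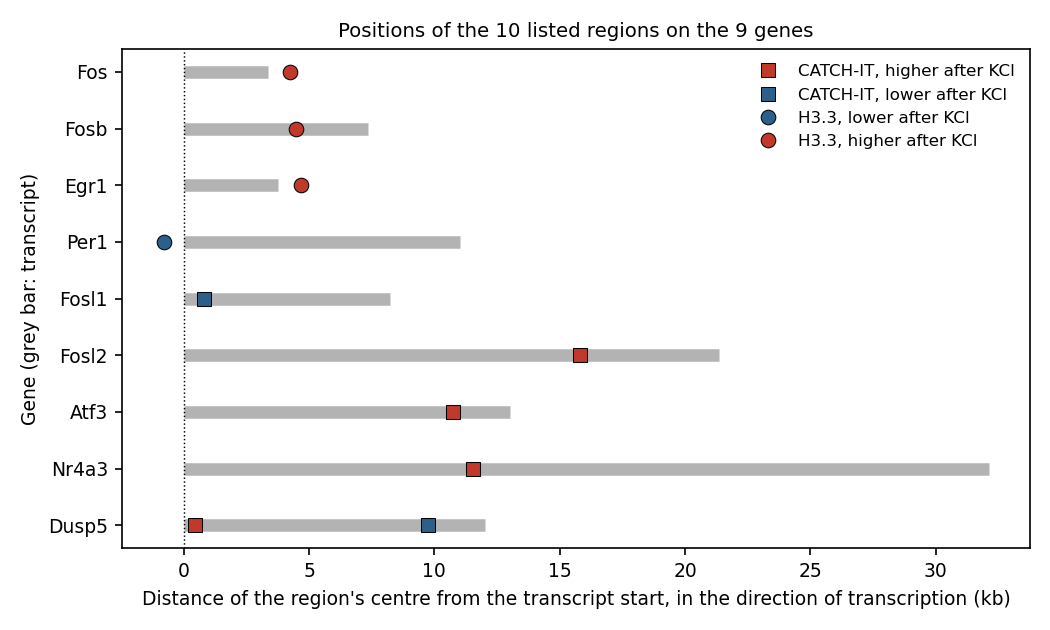
Distance in kb from the transcript start, in the direction of transcription, of the centre of each of the 10 regions (points), with the authors' transcript as a grey bar. Circles mark H3.3 and squares CATCH-IT, and colour gives the direction after KCl. The 3 red circles stand at 4.25 to 4.69 kb, past the end of the bar for Fos and Egr1 and within it for Fosb.

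The sequences at the H3.3 regions of Fosb, Fos and Per1 are shown because these windows carry the H3.3 differences, and because elements for the factors named above can be looked for in them. They are the 200 bp windows of the authors' table, read 5′ to 3′ on the plus strand of mm9, at chr7:19890841-19891040, chr12:86819001-86819200 and chr11:68911541-68911740. Capitals mark a match to TGACG, the core of the CRE, or to a CArG box, on either strand.
Fosb: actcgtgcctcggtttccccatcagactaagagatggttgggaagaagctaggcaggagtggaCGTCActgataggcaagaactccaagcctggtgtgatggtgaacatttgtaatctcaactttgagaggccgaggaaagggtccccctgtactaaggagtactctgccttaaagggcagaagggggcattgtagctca
Fos: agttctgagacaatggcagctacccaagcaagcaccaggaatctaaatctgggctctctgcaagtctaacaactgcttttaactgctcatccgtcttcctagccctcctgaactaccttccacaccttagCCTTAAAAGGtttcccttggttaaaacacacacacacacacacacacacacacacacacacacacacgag
Per1: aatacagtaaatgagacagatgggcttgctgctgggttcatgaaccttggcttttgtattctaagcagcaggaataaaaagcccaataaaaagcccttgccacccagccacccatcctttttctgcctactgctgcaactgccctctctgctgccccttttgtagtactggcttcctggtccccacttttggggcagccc

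The Fosb window held a CRE core from base 64, which reads TGACG on the minus strand, the strand of Fosb. The Egr1 window, not printed, held a match to the same letters. A match was present in 7.95% of the 667 windows of the 5 hr list. The Fos window held a CArG box from base 131, as did 0.90% of windows, followed by a run of CA repeats. None of the 3 windows held the AP-1 letters TGANTCA, which 8.40% of windows held, and none held the E-box CACGTG, which 2.85% held. The Per1 window held no match to any of the 7 motifs searched. These are matches of letters and are not evidence of binding.

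Base composition moved with direction, and not the same way in every list. At 5 hr, 77.5% of the regions with the highest GC content (50.4% or more, 222 regions) were gained, against 42.3% of the 220 regions at 44.6% to 50.0% GC and 13.3% of the 225 regions below that. Fosb, with 53.2% GC, and Egr1, with 52.3%, were among the first, and Fos, with 47.5%, was among the second. At 2 hr, in the same split into 3 parts by rank, the shares gained were 27.3%, 12.6% and 3.91% from the highest GC to the lowest, and Per1, with 50.5% GC, was a lost region of the highest part. At 30 min the order was the reverse, with 13.3%, 17.5% and 29.4% gained from the highest GC to the lowest. In NeuN- nuclei it was also the reverse, with 62.8%, 69.0% and 80.1%, while in NeuN+ nuclei the shares were 97.1%, 78.0% and 41.4%. The part of base composition in these values was not tested.

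By the authors' assignment of regions to genes, CATCH-IT gave another set of genes, in a list that named 9128. Gained CATCH-IT regions not assigned to the 9 genes lay 3.93 kb upstream of Fosb, 7.84 kb upstream of Egr1 and 8.12 kb downstream of Per1. A lost one lay 9.45 kb downstream of Fosb. After 5 hr of KCl, captured histone rose in regions of Atf3, Fosl2, Nr4a3 and Dusp5, and it fell in a region of Fosl1 and in another region of Dusp5. In all 6 regions the lower group was at 0 in all of its 3 libraries. All 6 passed the authors' adjusted p, as did every region of that list, of which 57.3% were called as gained and 42.7% as lost. Of the 53020 regions, 97.7% had a group at 0, and 99.2% had groups that did not overlap. A group at 0 allows up to 3 reads over its 3 libraries, a mean of 0.633 normalised counts in control and of 1.0 in KCl, and the folds below are lower bounds against those means. Floors of this kind cover counting error only.

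Fosl2, also called Fra-2, is an AP-1 subunit of the later phase. Its region, chr5:32454461-32454840, was in an intron, 15.8 kb past the start. The KCl libraries had 13.36, 0.53 and 8.15 normalised counts, from 10, 1 and 3 reads. The first library was high, the second was at a single read, and the mean of 7.35 ± 6.45 (SD, n = 3) was at least 11.6-fold higher than control. Atf3 had a similar order of libraries. At chr1:192996261-192996640, 10.8 kb past the start and 2.28 kb before the end, over 101 bp of a coding exon, the KCl libraries had 13.36, 1.07 and 5.44 normalised counts, from 10, 2 and 2 reads. The mean of 6.62 ± 6.23 (SD, n = 3) was at least 10.5-fold higher. Without the first KCl value the lower bounds of the log2 difference went from 3.54 to 2.78 for Fosl2 and from 3.39 to 2.36 for Atf3.

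Nr4a3, an orphan nuclear receptor, and Dusp5 shared a different order. The Nr4a3 region, chr4:48075481-48075820, was in an intron, 11.5 kb past the start that the authors used and 17.6 kb past the GENCODE start. It had 2.67, 7.46 and 2.72 normalised counts in KCl, from 2, 14 and 1 reads, with a mean of 4.28 ± 2.75 (SD, n = 3), at least 6.77-fold higher. The gained Dusp5 region, at chr19:53604101-53604400, was the only gained region at a start among these genes. Its centre was 0.444 kb past the authors' start and it covered 86 bp of coding exon. Its KCl values were 2.67, 6.92 and 2.72, from 2, 13 and 1 reads, and the mean of 4.10 ± 2.44 (SD, n = 3) was at least 6.48-fold higher. In both regions the second KCl library held most of the reads. Without it the lower bound of the log2 difference was 2.09 in each, against 2.76 for Nr4a3 and 2.70 for Dusp5.

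The lost regions were at Fosl1, which encodes the AP-1 subunit Fra-1, and further into Dusp5. The Fosl1 region, chr19:5448341-5448660, was in an intron 0.803 kb past the start. Its control libraries had 0.32, 4.16 and 14.19 normalised counts, from 1, 3 and 12 reads, with a mean of 6.22 ± 7.16 (SD, n = 3), at least 6.21-fold higher than KCl. The SD exceeded the mean. At the second Dusp5 region, chr19:53613421-53613720, in an intron 9.76 kb past the start, the control libraries had 0.95, 8.32 and 14.19 normalised counts, from 3, 6 and 12 reads. The mean of 7.82 ± 6.63 (SD, n = 3) was at least 7.8-fold higher than KCl. Without the third control value the log2 difference bound went from -2.63 to -1.16 for Fosl1 and from -2.96 to -2.21 for Dusp5. Dusp5 thus had a gain at its start and a loss 9.76 kb into the gene within the same 6 libraries.

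**Figure D3:**
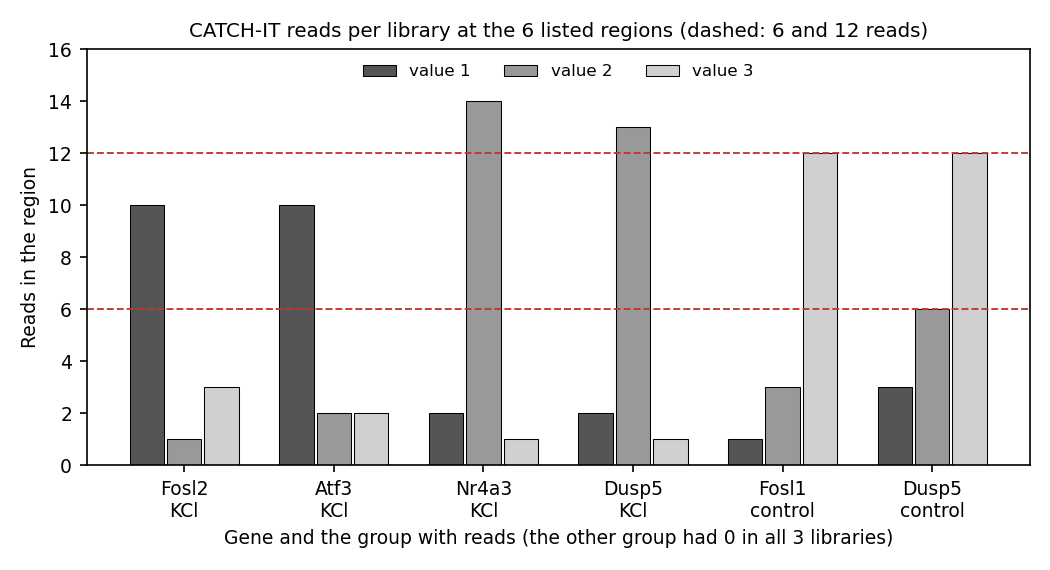
Reads per library (vertical axis, whole reads recovered from the normalised counts) in the group with reads, at the 6 CATCH-IT regions, with dashed lines at 6 and 12 reads. A single library stands far above the other 2 in each region except the Dusp5 region with reads in control, where the third library has 12 reads and the second has 6.

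The reads behind these regions were few. The 6 regions held 14 to 21 reads in the higher group, median 16, against a median of 17 in all gained and 21 in all lost regions of the list. The library with most reads held 57.1% to 82.4% of them, median 73.2%, against a median of 60.0% over the list. Across the list, values piled up at exactly 6 and exactly 12 reads. In the third control library, 66.6% of the values above 0 were exactly 12 reads, and both regions lost here had exactly 12 reads in it. In the second KCl library 23.1% were exactly 12 reads, but Nr4a3 and Dusp5 had 14 and 13. The name of the deposited list gives a duplicate setting of 6, and the part of repeated reads in these values was not tested. By GC content, the CATCH-IT list had 58.8%, 57.9% and 55.2% gained from the highest GC to the lowest.

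**Figure D4:**
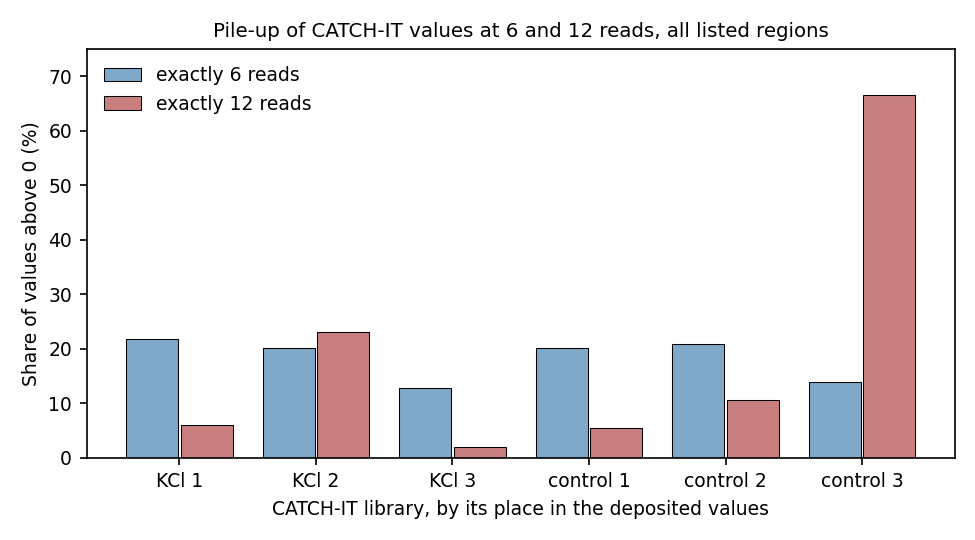
Share of the values above 0 that equal exactly 6 reads (blue) or exactly 12 reads (red) in each of the 6 CATCH-IT libraries, over all 53020 regions. The third control library stands apart, with 66.6% of its values at 12 reads against 1.96% to 23.1% in the other 5.

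The windows of the CATCH-IT regions in introns of Fosl2 and Dusp5 are shown because they were the ones of the 6 windows with a motif match, the E-box CACGTG, a site of bHLH factors that include the clock proteins. They are chr5:32454461-32454660 and chr19:53613421-53613620, plus strand of mm9, with the E-box in capitals.
Fosl2: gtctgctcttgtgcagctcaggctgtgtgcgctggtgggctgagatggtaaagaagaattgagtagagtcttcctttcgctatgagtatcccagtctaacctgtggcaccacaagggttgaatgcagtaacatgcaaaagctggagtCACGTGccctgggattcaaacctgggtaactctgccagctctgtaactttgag
Dusp5: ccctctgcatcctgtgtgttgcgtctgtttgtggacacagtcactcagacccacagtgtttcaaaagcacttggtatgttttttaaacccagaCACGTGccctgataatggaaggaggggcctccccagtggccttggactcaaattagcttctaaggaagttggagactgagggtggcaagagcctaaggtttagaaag

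The E-box began at base 148 in Fosl2, which rose, and at base 94 in Dusp5, where the region fell. It was found in 2.21% of all windows of the CATCH-IT list. The AP-1 letters were found in none of the 6 windows and in 6.11% of all windows. With 100 bp added on each side, the Atf3 window also held an E-box, and a TGACG match appeared at 1 of the Dusp5 windows.

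Enriched housing listed none of the 9 genes. In NeuN+ nuclei 70.1% of the 1642 listed regions were called as gained and 27.7% as lost, and in NeuN- nuclei 70.6% of 1196 were gained and 29.3% lost. The nearest regions were outside the genes. In NeuN+ nuclei, H3.3 rose at a region 16.2 kb upstream of Dusp5, with 16.48 and 20.55 normalised counts after enrichment against 3.01 and 5.14, and at another 49.4 kb upstream, with 17.27 and 19.69 against 6.02 and 3.08 (n = 2 each). In NeuN- nuclei a region 33.9 kb upstream of Dusp5 fell, with 0, 0 and 1.08 after enrichment against 5.69, 6.76 and 8.14. A region 35.0 kb downstream of Per1 rose, with 5.82, 10.57 and 4.88 against 0, 0.68 and 0. The authors assigned the latter to Aloxe3 and the Dusp5 neighbours to no gene. In the same NeuN+ list, regions at markers of other cell types rose as well. They were at Aldh1l1, an astrocyte gene, with a mean of 23.76 ± 0.297 after enrichment against 6.13 ± 4.41, at Mbp, a myelin gene, with 20.98 ± 3.03 against 6.57 ± 3.48, and at Cdh5, an endothelial cadherin gene, with 22.09 ± 0.955 against 5.07 ± 1.35 (SD, n = 2 each). They were 1 of 6 astrocyte, 1 of 6 oligodendrocyte and 1 of 5 endothelial markers, and 0 of 5 microglia markers were listed there. In NeuN- nuclei the region of P2ry12, a microglial receptor gene, fell from 6.96 ± 0.785 to 0.747 ± 0.648 (SD, n = 3 each). It was 1 of 5 microglia markers, and 0 markers of the other cell types were listed there. The part of cell make-up in the housing values was not tested.

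Related genes were taken from 6 lists with 96 gene names in all. They were partners of AP-1, relatives of Egr and Nr4a, other activity-induced transcription factors, phosphatases and other feedback genes, clock genes and effectors. The effector names Cyr61 and Ccn1 stand for 1 gene, and 20 of the 21 effector names were in the annotation. In the H3.3 culture lists 4 of the 96 fell at 30 min, 2 fell and 1 rose at 2 hr, and at 5 hr 1 was listed and did not pass. Of all listed regions, 78.6% were called as lost and 19.9% as gained at 30 min. At 2 hr the shares were 85.3% and 14.2%, so a fall is what most regions of these 2 lists gave. None of the 7 relatives of Egr and Nr4a had a region in any list. At 30 min, the regions that fell were at the clock genes Arntl and Nr1d1, at the Notch coactivator gene Maml3 and at Rem2, a small GTPase that restrains calcium channels. At Nr1d1 the control mean was 16.51 ± 4.42 and the KCl mean 4.29 ± 1.76. At Rem2, 0.0925 kb past the start, control had 11.4 ± 1.10 and KCl 2.25 ± 0.295 (SD, n = 3 each). Arntl had 17.97 ± 2.47 and 5.80 ± 3.32, and Maml3 had 14.2 ± 2.05 and 3.86 ± 0.626. At Arntl the authors' ratio to input was 1.92 in control and 1.16 in KCl, a narrower difference than in the counts. In that 30 min list the neuron markers Syt1 and Snap25 also fell, from 12.5 ± 2.21 to 3.24 ± 1.09 and from 14.8 ± 4.74 to 3.53 ± 1.27. The endothelial marker Pecam1 rose from 2.79 ± 1.45 to 11.03 ± 0.661 (SD, n = 3 each). These were 2 of 6 neuron and 1 of 5 endothelial markers. Of the 6 astrocyte, 6 oligodendrocyte and 5 microglia markers, 0 were listed there. The part of cell make-up in these values was not tested.

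At 2 hr, when Per1 fell, Clock rose, with 11.03, 17.43 and 17.7 normalised counts in KCl against 3.05, 5.0 and 4.91, in a region 16.8 kb past its start. The authors' ratio to input at Clock was 1.67 in KCl and 1.16 in control, a much narrower difference than in the counts. The part of input in the Clock value was not tested. Clock encodes the activator that Per1 protein restrains. Rara, a retinoic acid receptor gene, fell from 12.6 ± 3.03 to 3.20 ± 1.65, and Pde4b, a cAMP phosphodiesterase gene, from 12.1 ± 1.70 to 2.94 ± 1.37 (SD, n = 3 each). At 5 hr, when Fos, Fosb and Egr1 were listed as gained, the single other gene of the 6 lists was Mef2c, with 5.9, 5.27 and 2.98 in KCl against 15.35, 18.45 and 15.52 and an adjusted p of 0.0797 in the authors' deposited table. For H3.1/2 the single gene was Myc, whose region rose from 8.20 ± 2.18 to 25.8 ± 1.05 (SD, n = 3 each). It lay 0.674 kb past the start of the transcript that the authors used there. Their CATCH-IT list used a Myc transcript that starts further upstream. After enrichment, Arntl fell in NeuN+ nuclei, with 6.28 and 9.42 against 27.1 and 20.55. Maml3 rose in NeuN- nuclei from 0.527 ± 0.469 to 5.51 ± 0.280, and Dusp16, a phosphatase of stress kinases, from 0.920 ± 0.905 to 6.23 ± 1.21 (SD, n = 3 each). The Dusp16 region lay 77.5 kb past the start. Its ratio to input was 1.75 after enrichment and 1.05 after normal housing, a much narrower difference than in the counts.

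In CATCH-IT, 43 of the 96 names had a region: 15 had gained regions, 12 had lost regions and 16 had both, as Dusp5 did. The whole list named 9128 genes, and the share of all annotated genes with a region was not counted. The regions of the 43 names were 73 gained and 56 lost, 56.6% gained, beside the 57.3% of the whole list. Among gained regions, 13 regions of 10 genes shared the smallest adjusted p of 4.15e-07 with 6381 regions of the list in all. They were at Arntl, Creb1, Crem, Fbxo33, Homer1, Maml3, Mef2c, Pde4b, Pde4d and Rem2. The Creb1 region, in the gene of the CRE-binding activator, had 8.02, 6.39 and 19.03 normalised counts in KCl, and the Crem region, in the gene of a CRE-binding relative with repressor forms, had 6.68, 6.92 and 8.15, with all control libraries at 0 in both. Among lost regions, 986 of the whole list had an adjusted p of 2.18e-06 or less. Of these, the 3 regions of the related genes, with their smallest p, were at Pde4d, Pde4b and Arntl. Their control values were 1.58, 13.86 and 14.19 at Pde4d and 2.84, 12.47 and 14.19 at each of the other 2, so that the third control library, at 14.19, again had exactly 12 reads.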

How the data were processed

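H3.3, H3.1/2 and CATCH-IT libraries were compared through 7 lists of regions, and 41 of the 66 samples belong to the 14 groups compared. The submitters' processing notes name mm9 as the build, with Bowtie 0.12.7 and bedtools 2.16.2; a region caller is not given in the sources used. Per the file headers, each region carries the authors' normalised counts per library, packed without library names. The authors also deposited the group mean of this signal, its ratio to input, a log2 fold change and a p-value with its adjusted p-value. Changes under about 3-fold were not listed. The 30 min control group has 4 libraries in the labels, 1 of them a repeat, and 3 values per region.

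Low values of each H3.3 culture and CATCH-IT library were whole multiples of a step within 0.1 in 100% of cases, which gave the reads behind each value. Distances were taken from the transcripts of the deposited lists to region centres and set beside GENCODE on NCBIM37, the same assembly as mm9, from which sequence was read. The 7 motifs searched in 200 bp windows on both strands were TGANTCA for AP-1, TGACGTCA for the CRE, TGACG for its core (which the CRE contains), GCGNGGGCG for Egr, AAAGGTCA for Nr4a, CACGTG for the E-box, and the CArG box of SRF. The step search and the motif scan were tested on simulated data. Python 3.11.15 with pandas 2.3.3 was used.

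Named regions were those of the 9 genes, related genes with an adjusted p of 0.05 or less in an H3.3 list, and the 3 smallest adjusted p per direction in CATCH-IT. Mef2c and Myc were named after their values were seen. The 9 genes and the lists of related genes were chosen with earlier results of these data known.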

Additional observations from a re-analysis of the deposited data

How the results depend on the processing

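No paired analysis was possible because the deposited values carry no library names, so replicate numbers could not be tied to values. With an adjusted p of 0.01 or less in place of 0.05, 0 regions of the 9 genes passed at 2 hr and 0 at 5 hr, and the 6 CATCH-IT regions still passed. At 0.1 the counts were those at 0.05. Counting any region within 10 kb of the genes gave 12 in CATCH-IT in place of 6, and the counts of the other lists did not change. A start window of 2 kb in place of 1 kb left 3 regions at a start.

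Since no region of the 9 genes had overlapping groups, leaving out values, medians and a pseudocount of 1 could change the size of a log2 difference and not its direction. Leaving out values gave 1.51 to 1.65 for Fosb, 1.82 to 2.09 for Egr1, 1.55 to 1.98 for Fos and -1.82 to -1.66 for Per1. The ratio to input, which could have changed a direction, gave 1.70 for Fosb, 1.73 for Egr1, 1.84 for Fos and -1.01 for Per1. By group medians Fos was at 2.03 and Egr1 at 1.99. In CATCH-IT the ranges were 2.36 to 3.89 for Atf3, 2.78 to 4.09 for Fosl2, 2.09 to 3.01 for Nr4a3, 2.09 to 2.93 and -3.49 to -2.21 for Dusp5, and -3.19 to -1.16 for Fosl1. Widening the windows by 100 bp on each side left the H3.3 matches at 5 hr as they were and added a TGACG match at Per1. In CATCH-IT it brought the E-box from 2 to 3 of the 6 windows, with Atf3 added, and a TGACG match to Dusp5. For the lists with no region of the 9 genes, the alternatives on fold changes gave no value.

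In the higher group, 14 to 21 reads stood behind each CATCH-IT region, 46, 59 and 84 reads behind Fos, Egr1 and Fosb, and 41 behind Per1. In the lower group there were 13, 14 and 25 reads for Fos, Egr1 and Fosb, and 13 for Per1.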

Other observations

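Of the 12 CATCH-IT regions within 10 kb of the 9 genes, 6 were not assigned to them. The region nearest to Fosb was 3.93 kb upstream of its start and was assigned to no gene. It had 5.34, 6.92 and 5.44 normalised counts in KCl and 0 in all control libraries. The KCl values came from 4, 13 and 2 reads. A region 7.84 kb upstream of Egr1 was also gained, with 2.67, 12.25 and 2.72 in KCl and 0 in control. A gained region 8.12 kb downstream of Per1, assigned to Hes7, had 14.69, 3.2 and 16.31 in KCl and 1.89, 0 and 0 in control. Regions 6.60 kb upstream of Atf3, 7.02 kb downstream of Fosl1 and 9.45 kb downstream of Fosb were lost. Each of these 3 had 14.19 normalised counts, or 12 reads, in the third control library.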
